A study of Mus musculus with 17 samples.

Results

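Prkcq, Map3k8, Rasgrp2, Tagap, Was, Cd5 and Cd6 are T cell receptor signalling genes that lie in the first 12 Mb of their mouse chromosomes. Their rows in a gene count table were taken by name and position, with earlier results of these data known. They are 7 of the 47643 rows, and all 7 passed the filter on low counts. The counts came from polyadenylated RNA of regulatory T cells (Tregs), sorted from spleen by a GFP reporter of Foxp3, the transcription factor that defines these cells. All mice were of the NOD strain, which develops autoimmune diabetes, and all carried the Foxp3-GFP reporter. The 17 libraries comprised 6 of mice with an Nfkbid transgene (NOD-60A Tg+), 5 of Nfkbid knockout mice (NOD- Nfkbid-KO) and 6 of control NOD mice. Nfkbid encodes a nuclear inhibitor-of-kappaB-like protein that modulates NF-kB. Each transgenic library held the RNA of 1 sample and each knockout or control library a pool of 2, so genotype and pooling cannot be told apart where the transgenic group is compared. The promoter of the transgene and the age and sex of the mice are not given in the sources used here, and the batch label was the same for every library. Library numbers in the column names form a separate run for the knockout group, while those of some controls fall among the transgenic ones. What these numbers stand for is not stated in the labels.

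When a T cell receptor binds its ligand, kinases at the membrane phosphorylate adaptors, and the signal divides into branches that lead to NF-kB, Ras and MAP kinases, calcium and the actin skeleton. Prkcq (protein kinase C theta) feeds the NF-kB branch, and Map3k8 (Tpl2), which the precursor protein of Nfkb1 holds in check, starts a MAP kinase cascade. Rasgrp2 exchanges nucleotide on the small GTPase Rap1, Tagap is a GTPase-activating protein of activated T cells, and Was is the Wiskott-Aldrich protein that starts actin branching. Cd5 and Cd6 are related surface receptors that temper the response. Tregs need receptor signals for their suppressive program, and CD5 is known to follow the strength of those signals.

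Of the 7 rows, 3 were lower in transgenic than in control libraries (Rasgrp2, Tagap and Prkcq), where 2.17% of all rows tested were called lower and 7.4% in either direction. Map3k8, 1 of the 7, was higher in knockout than in control libraries, where 0.881% of rows were called higher and 1.89% in either direction. Rasgrp2, Prkcq and Map3k8, 3 of the 7, were lower in transgenic than in knockout libraries, where 4.33% of rows were called lower and 10.7% in either direction. Was, Cd5 and Cd6 passed the test in no comparison. Rows of 5 other receptor signalling genes in the first 12 Mb were called in no comparison either. The 7 were chosen with earlier results of these data known, so these shares do not test for an excess among them. A row is called where its Benjamini-Hochberg adjusted p over 9986 rows, from edgeR's quasi-likelihood F test, is under 0.05. Levels below are CPM, counts scaled to a common library size with TMM factors, and they compare 1 row between libraries, never 1 gene with another.

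The names need a caution before the values. Many rows of this table may not count the gene they name, and rows near the chromosome starts match their names best. Of the 4 rows of ribosomal protein genes in the first 12 Mb, 3 had a mean of at least 1000 counts (Rps9, Rps20 and Rpl28), all in the first 5 Mb. The other, Rpl37 at 5.1 Mb, had a mean of 27.4 counts, and of the 7 rows only Map3k8 starts before it. These rows thus say little of names between there and 12 Mb. Beyond 12 Mb, 1 of 72 reached a mean of 1000 counts, and 49 of 72 had a mean under 10, although cells transcribe such genes strongly. Earlier work on the table estimated that exons lie displaced by 0.45 kb for each Mb of position. As a description, the mean Spearman's rho across rows, over 20 chromosomes, between counts and the exon bases that a row's moved exons cover was 0.537 at that displacement, against 0.509 at 0.3 and 0.496 at 0.6 kb per Mb and 0.428 for the same move in the other direction. It was 0.551 with no move, where every exon base is covered and the measure is exon length. For rows in the first 12 Mb it was 0.562 with no move and 0.530 at 0.45 kb per Mb, so this measure does not favour a move there, and the displacement is an assumption in what follows. Under that move 66.8% of the exon bases of Rasgrp2 stayed on exons of Rasgrp2. The share was 13.5% for Was, 10.9% for Cd5, 10.1% for Tagap, 6.23% for Prkcq, 5.86% for Cd6 and 5.48% for Map3k8. At that move no exon base of Prkcq, Map3k8, Was, Cd5 or Cd6 lay on another annotated gene's exons, while 14.6% of those of Tagap lay on its antisense neighbour E430024P14Rik. The 7 are therefore called rows here, and Rasgrp2 is the one whose name depends least on the displacement.

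As a check of the cells, the Foxp3 row (ENSMUSG00000039521, chromosome X, 7573644 to 7595245 on GRCm38) averaged 318.4 ± 22.1 CPM with the transgene (SD, n = 6), 313.0 ± 40.9 in the knockout (SD, n = 5) and 346.5 ± 15.6 in controls (SD, n = 6). No comparison called it. Under the move 5.66% of its exon bases stayed on Foxp3 and 31.3% lay on Gm36995, so its name is no firmer than those of the 7. The summed list of 8 Treg rows ran from 1094 to 1211 CPM with the transgene, 956 to 1103 in the knockout and 940 to 1021 in controls, and 6 of the 8 rows start beyond 12 Mb. Among these, Izumo1r and Ikzf2 were called higher and Nrp1 lower in transgenic against control libraries (log2 fold changes 0.58, 0.48 and -1.20). In knockout against control Ikzf2 was called higher and Izumo1r lower (0.53 and -0.35). The Tnfrsf18 row had a mean of 0.0588 counts over all libraries. Nrp1 averaged 2.90, 6.76 and 6.66 CPM in transgenic, knockout and control libraries. The Nfkbid row (chromosome 7, 30421732 to 30428746) averaged 8.79 ± 1.51 CPM with the transgene (SD, n = 6), 4.75 ± 2.41 in the knockout (SD, n = 5) and 4.57 ± 0.915 in controls (SD, n = 6). It was called higher in transgenic than in control libraries (0.94, SE 0.28, adjusted p = 0.0454), and knockout libraries were not lower than control ones (0.06, SE 0.30, adjusted p = 0.914). Under the move 0% of its exon bases stayed on Nfkbid, so whether it checks the genotypes depends on the displacement, and the groups are those of the labels. Totals ran from 3133388 to 4726615 counts per library, 3 counts were worth 0.623 to 1.04 CPM, and that limit covers counting error only. Among the rows of other cell types, Ms4a1 of B cells reached 0 to 4.88 CPM and Ncr1 of natural killer cells 0 to 0.903 CPM, both within the first 12 Mb. Over the whole lists, whose other names are less certain, 2 of 7 B cell rows (Cd79b and Blk) were at 0 throughout. The summed B cell list reached 179 to 272 CPM with the transgene, 171 to 259 in the knockout and 216 to 301 in controls. In the same order the myeloid list ran from 86.4 to 107, 84.5 to 114 and 79.7 to 102, natural killer rows from 2.88 to 7.36, 6.95 to 15.7 and 4.12 to 7.06, and CD8 rows from 1.73 to 10.8, 1.64 to 17.9 and 5.62 to 8.83. Platelet rows ran from 32.98 to 49.6, 25.9 to 61.5 and 32.3 to 42.1. Their part in the results was not tested.

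Knockout replicates 2, 3 and 5 stood apart. They had 13615, 13476 and 13802 rows above 0, against 15039 and 15931 in knockout replicates 1 and 4 and 15801 to 17379 in the 12 other libraries. Mitochondrial rows took 25.6%, 25.3% and 28.2% of their counts, against 22.04% and 22.5% in the other two and 19.7% to 24.8% in transgenic and control libraries. Knockout values without them are given for Map3k8, Cd5, Was and Cd6, along with some counts of calls, an alternative chosen after seeing the data. Other knockout values, such as those of Foxp3, Nfkbid, E430024P14Rik, Slc15a3 and the named list rows, are given only with them.

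Sequence upstream of the RefSeq start sites is shown for the pair of rows that fell in transgenic libraries and whose windows held a motif of a factor that acts downstream of the receptor. Promoter windows of 250 bases upstream, from RefSeq on GRCm38.p6, matched 5 of the 7 rows, with 6 windows in all. They were searched on both strands for 5 motifs: kappaB by its name, TGGAAA (the NFAT core), TGANTCA (AP-1), TGTGGT (RUNX) and CCGGAA (ETS). The Rasgrp2 stretch is chr19:6399771-6399797 on the plus strand, with 2 overlapping kappaB matches in capitals, and it lies upstream of a RefSeq start but after the gene's first annotated base in GENCODE, in an annotated Rasgrp2 exon. The Tagap window is chr17:7925750-7925999 on the plus strand, with 3 NFAT core matches and 1 ETS match in capitals, some read on the minus strand, and it holds no annotated exon.
Rasgrp2: ggcgagagGGGGAGTCCCCggtggagg
Tagap: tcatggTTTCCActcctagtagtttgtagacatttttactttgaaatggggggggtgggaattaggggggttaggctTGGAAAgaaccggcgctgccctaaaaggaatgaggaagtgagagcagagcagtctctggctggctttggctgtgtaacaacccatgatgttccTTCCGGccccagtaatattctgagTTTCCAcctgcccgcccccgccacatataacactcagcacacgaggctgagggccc
The kappaB motif was present in 7.25% of 32841 RefSeq windows of the same length, the NFAT core in 18.6%, AP-1 in 6.75%, RUNX in 14.05% and ETS in 12.03%. The windows of Prkcq and Cd5 held no match to any of the 5, that of Was 1 RUNX match, and the other window of Rasgrp2 1 ETS match. A match is a run of letters and does not show that a factor binds there.

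**Figure D1:**
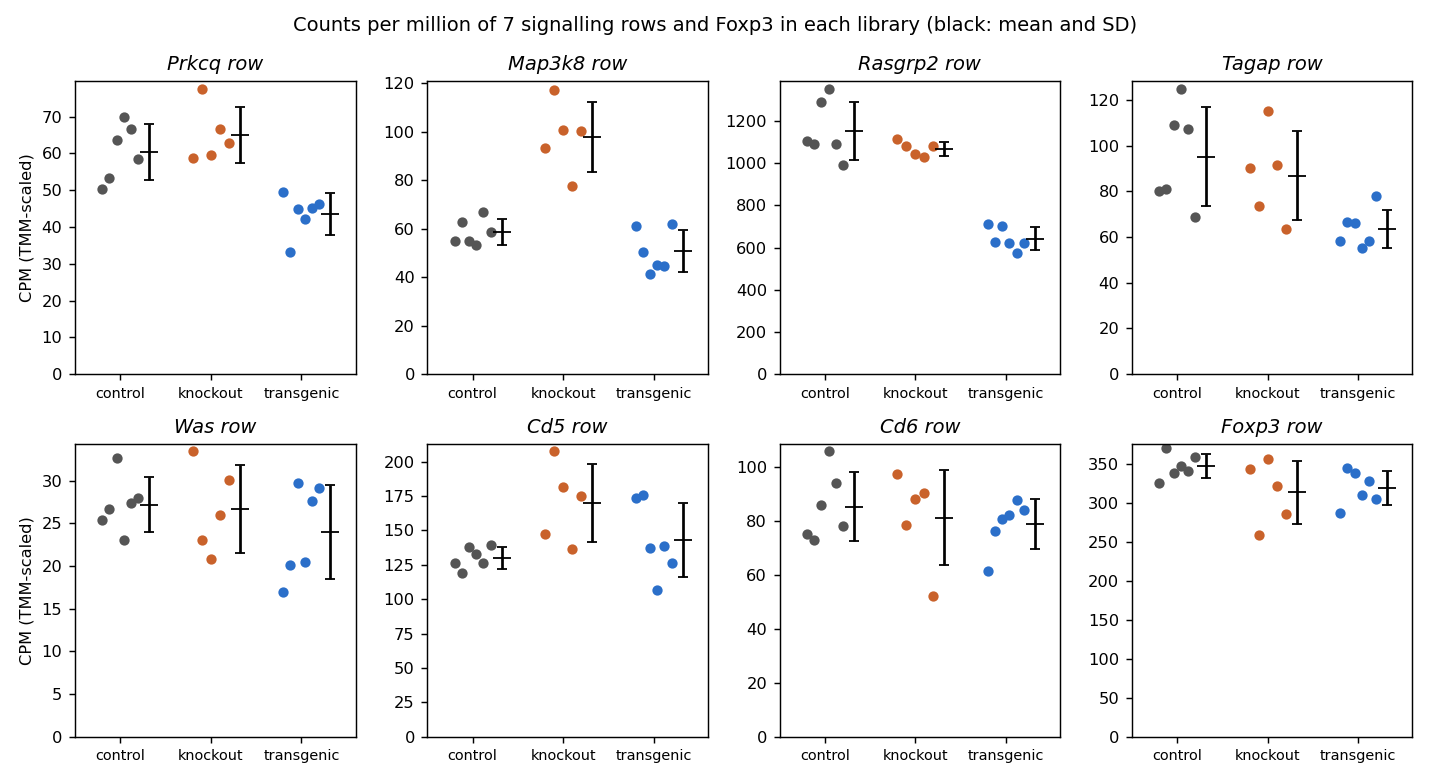
TMM-scaled CPM (vertical axes, from 0) of the 7 rows and of Foxp3 in the 6 control, 5 knockout and 6 transgenic libraries; each point is 1 library, and the black bar gives the mean and SD of its group. All transgenic points of Rasgrp2 and Prkcq lie below all others, and all knockout points of Map3k8 lie above all others.

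Rasgrp2 (ENSMUSG00000032946, chromosome 19, 6399340 to 6415216, plus strand) showed the clearest difference with the transgene. Its lowest, median and highest levels were 573.6, 623.8 and 712.4 CPM in the 6 transgenic libraries and 991.3, 1098.2 and 1350.9 in the 6 control libraries. The 5 knockout libraries held 1114.0, 1080.6, 1044.1, 1029.7 and 1079.7 CPM. Every transgenic library was thus below every other library, while knockout values lay inside the control range. The means were 643.0 ± 54.2 (SD, n = 6), 1069.6 ± 33.3 (SD, n = 5) and 1153.7 ± 137.6 CPM (SD, n = 6). In transgenic against control libraries the log2 fold change was -0.84 (SE 0.09, adjusted p = 9.1e-07), with controls 1.79-fold higher. Against knockout libraries it was -0.73 (SE 0.09, adjusted p = 9.4e-06). Knockout and control libraries differed by -0.11 (SE 0.09, adjusted p = 0.485), which is not a call. Both calls held in all 29 alternative settings, with -0.89 to -0.79 against control. At 1868.8 counts or more in every library, this was the most deeply counted of the 7 rows. The Pygm row, which ends 881 bases before Rasgrp2, differed by -0.74 in transgenic against control libraries (SE 0.23, adjusted p = 0.0522), which is not a call.

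Prkcq (ENSMUSG00000026778, chromosome 2, 11172108 to 11301222, plus strand) was also lowest in transgenic libraries, by a smaller difference. Transgenic libraries ran from 33.1 CPM, with a median of 45.0, to 49.4, and control libraries from 50.3, with a median of 61.0, to 69.9. Knockout libraries held 58.7, 77.5, 59.6, 66.5 and 62.9 CPM. The highest transgenic library lay just under the lowest control library, and knockout and control libraries overlapped. The means were 43.5 ± 5.61 (SD, n = 6), 65.0 ± 7.60 (SD, n = 5) and 60.4 ± 7.64 CPM (SD, n = 6). Prkcq fell by 0.47 on the log2 scale in transgenic against control libraries (SE 0.12, adjusted p = 0.0153) and by 0.58 against knockout (SE 0.12, adjusted p = 0.00346). Knockout against control gave 0.11 (SE 0.12, adjusted p = 0.615). The call against control ended without a filter on low counts (adjusted p = 0.0713) and with a replicate block (adjusted p = 0.0511), and that against knockout held in all 29 settings. Rows that overlap Prkcq were not called. In transgenic against control libraries Gm37766, on the same strand, differed by -0.50 (SE 0.17, adjusted p = 0.0737). Gm37520 gave -0.71 (SE 0.48, adjusted p = 0.468) and Gm36932 0.15 (SE 0.43, adjusted p = 0.907).

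Tagap (ENSMUSG00000033450, chromosome 17, 7926000 to 7934897, plus strand) was the third row lower with the transgene. It ran from 55.1 CPM, with a median of 62.1, to 77.9 in transgenic libraries and from 68.8, with a median of 94.1, to 124.8 in control libraries. Knockout libraries held 90.3, 73.7, 115.0, 91.6 and 63.6 CPM. The transgenic and control groups overlapped, and knockout libraries spread over both. The means were 63.6 ± 8.34 (SD, n = 6), 86.8 ± 19.6 (SD, n = 5) and 95.1 ± 21.7 CPM (SD, n = 6). Tagap fell by 0.58 on the log2 scale in transgenic against control libraries (SE 0.16, adjusted p = 0.0236). Against knockout the difference was -0.45 (SE 0.16, adjusted p = 0.0818), and knockout libraries differed from control ones by -0.13 (SE 0.16, adjusted p = 0.652). The call was lost in 6 of 29 settings, with adjusted p of 0.0529 under a replicate block. It was also lost without transgenic replicate 4 or 5 (adjusted p = 0.0559 and 0.06) or control replicate 3, 4 or 5 (adjusted p = 0.0623, 0.0747 and 0.0599). Without knockout replicate 5 the difference from knockout passed (-0.54, adjusted p = 0.0427).

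An antisense row, E430024P14Rik, overlaps Tagap on the opposite strand and covers 23.2% of its exon bases. It averaged 304.1 ± 86.0 CPM with the transgene (SD, n = 6), 479.4 ± 161.2 in the knockout (SD, n = 5) and 366.6 ± 52.8 in controls (SD, n = 6). Against knockout it was lower in transgenic libraries by the same edgeR test, with a log2 fold change of -0.66 (SE 0.19, adjusted p = 0.0302). The sources used here do not say whether the authors' counting used strand, so reads of Tagap and of this row cannot be told apart where they overlap.

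Map3k8 (ENSMUSG00000024235, chromosome 18, 4331327 to 4353015, minus strand) was the only one of the 7 called in knockout against control libraries. Knockout libraries held 93.3, 117.2, 100.6, 77.7 and 100.5 CPM. Control libraries ran from 53.1 CPM, with a median of 56.8, to 66.8, and transgenic libraries from 41.5, with a median of 47.8, to 61.8. Every knockout library was above every other library, and transgenic and control libraries overlapped. The means were 97.9 ± 14.3 (SD, n = 5) in knockout, 58.6 ± 5.35 (SD, n = 6) in control and 50.8 ± 8.78 CPM (SD, n = 6) in transgenic libraries. Map3k8 was 1.67-fold higher in knockout than in control libraries, a log2 fold change of 0.74 (SE 0.13, adjusted p = 0.00235). Transgenic libraries differed from knockout ones by -0.95 (SE 0.13, adjusted p = 2.6e-05) and from control ones by -0.21 (SE 0.12, adjusted p = 0.400). Knockout replicates 2, 3 and 5 held 100.5 to 117.2 CPM and replicates 1 and 4 held 77.7 to 93.3 CPM. Without those 3 libraries knockout against control was 0.55 and not called (adjusted p = 0.169), and transgenic against knockout was -0.74 (adjusted p = 0.00407).

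The Was row (ENSMUSG00000031165, chromosome X, 8081453 to 8090498, minus strand) was called in no comparison. It averaged 24.0 ± 5.46 CPM with the transgene (SD, n = 6, range 16.9 to 29.7), 26.7 ± 5.15 in the knockout (SD, n = 5, range 20.8 to 33.5) and 27.2 ± 3.21 in controls (SD, n = 6, range 23.1 to 32.7). The 3 groups overlapped. On the log2 scale the transgenic group differed from control by -0.18 (SE 0.16, adjusted p = 0.629) and from knockout by -0.15 (SE 0.17, adjusted p = 0.626), and the knockout from control by -0.03 (SE 0.17, adjusted p = 0.941). Its counts, 49 to 125 per library, were the lowest of the 7.

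Cd5 (ENSMUSG00000024669, chromosome 19, 10717116 to 10739002, minus strand) varied little among control libraries and more within the other groups. Control libraries ran from 118.9 CPM, with a median of 129.3, to 139.7. Knockout libraries held 147.7, 208.0, 181.6, 136.7 and 175.2 CPM, and transgenic libraries ran from 107.0, with a median of 137.9, to 175.7. Of the knockout libraries 4 lay above all controls, and the fourth replicate lay inside their range. The means were 130.2 ± 8.00 (SD, n = 6) in control, 169.8 ± 28.3 (SD, n = 5) in knockout and 143.0 ± 26.9 CPM (SD, n = 6) in transgenic libraries. Knockout against control was 0.38 (SE 0.13, adjusted p = 0.102), transgenic against control 0.13 (SE 0.12, adjusted p = 0.630) and transgenic against knockout -0.25 (SE 0.13, adjusted p = 0.233) on the log2 scale. Without knockout replicate 4 the difference between knockout and control passed the test (0.45, adjusted p = 0.0354). Without knockout replicates 2, 3 and 5, which held 175.2 to 208.0 CPM against 136.7 to 147.7 in the other two, it was 0.13 (adjusted p = 0.908).

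Cd6 (ENSMUSG00000024670, chromosome 19, 10789341 to 10830058, minus strand), the neighbouring family member, showed no call. Its levels were 78.8 ± 9.29 CPM with the transgene (SD, n = 6, range 61.5 to 87.8), 81.3 ± 17.7 in the knockout (SD, n = 5, range 52.1 to 97.3) and 85.4 ± 12.8 in controls (SD, n = 6, range 72.8 to 106.0), so the groups overlapped. On the log2 scale the transgenic group differed from control by -0.11 (SE 0.14, adjusted p = 0.742) and from knockout by -0.05 (SE 0.14, adjusted p = 0.889). The knockout differed from control by -0.07 (SE 0.14, adjusted p = 0.802). The lowest Cd6 value, 52.1 CPM, was in knockout replicate 5, and the next, 61.5 CPM, in transgenic replicate 1. These were the libraries with the highest mitochondrial shares of their groups, 28.2% and 24.8%. The A430093F15Rik row between Cd5 and Cd6, with a mean of 256.6 counts, was called in no comparison, and the Slc15a3 row on the far side of Cd6 was lower in knockout than in control libraries (log2 fold change -0.95, SE 0.23, adjusted p = 0.0358).

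**Figure D2:**
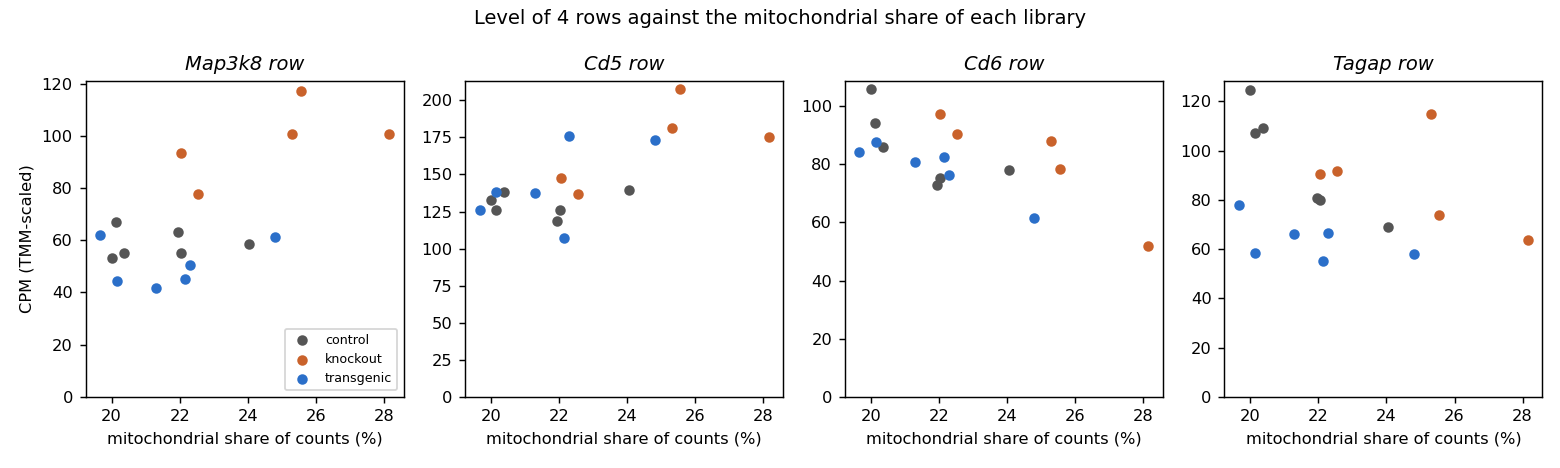
TMM-scaled CPM (vertical axes) of the Map3k8, Cd5, Cd6 and Tagap rows against the mitochondrial share of counts in percent (horizontal axes); each point is 1 library, coloured by group. The 3 knockout libraries at 25.3% or more hold the 3 highest Cd5 values among the knockout libraries, and the library at 28.2% has the lowest Cd6 value of all 17.

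Levels of several rows moved with the mitochondrial share of the libraries. The knockout libraries with the most mitochondrial counts had more Cd5 and Map3k8 than the other two knockout libraries, and the library with the largest share had the lowest Cd6 and, among knockout libraries, the lowest Tagap level (63.6 CPM). Knockout replicate 3, with a share of 25.3%, held the highest Tagap level of its group (115.0 CPM). The lowest Was level, 16.9 CPM, was in transgenic replicate 1, while knockout replicate 5 held 30.1. Among control libraries, the 3 with mitochondrial shares of at most 20.4% held 107.3 to 124.8 CPM of Tagap, and the 3 with 21.95% to 24.05% held 68.8 to 80.8. The part of RNA quality in these levels was not tested. In sorted bulk libraries, fewer cells of a kind and less RNA per cell cannot be told apart.

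**Figure D3:**
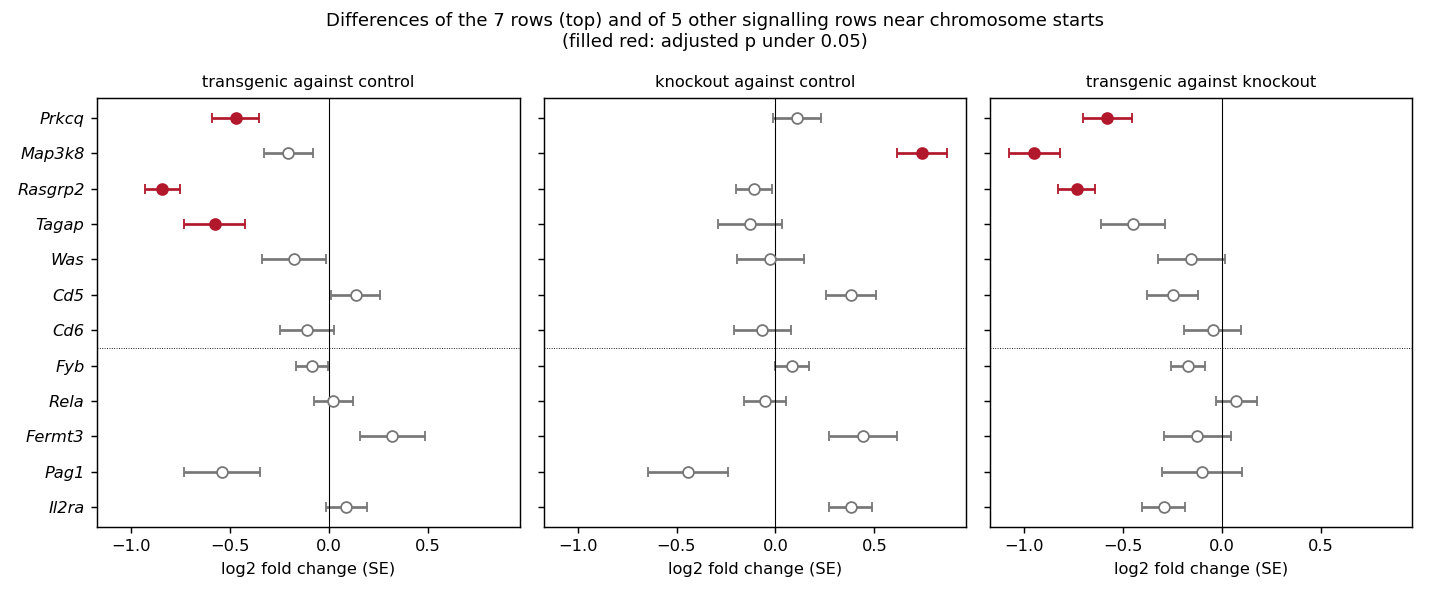
Log2 fold changes (horizontal axes, bars are SE) of the 7 rows and, under the dotted line, of 5 other receptor signalling rows in the first 12 Mb, in the 3 comparisons; filled red points have an adjusted p under 0.05. Rasgrp2, Prkcq and Tagap are called lower in transgenic against control, Map3k8 is called higher in knockout against control, and none of the 5 others is called.

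The share called lower was similar near the chromosome starts, with 2.53% of 950 rows in the first 12 Mb in transgenic against control libraries. Groups that do not overlap, with transgenic below control, were found for 2 of the 7, Rasgrp2 and Prkcq, and for 2.45% of all rows tested. In transgenic against knockout libraries it was found for 3 of the 7, Rasgrp2, Prkcq and Map3k8, against 1.96% of rows tested. Knockout lay wholly above control for 1 of the 7, Map3k8, and for 1.08% of rows. The comparisons share libraries, so their calls are not independent of each other.

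**Figure D4:**
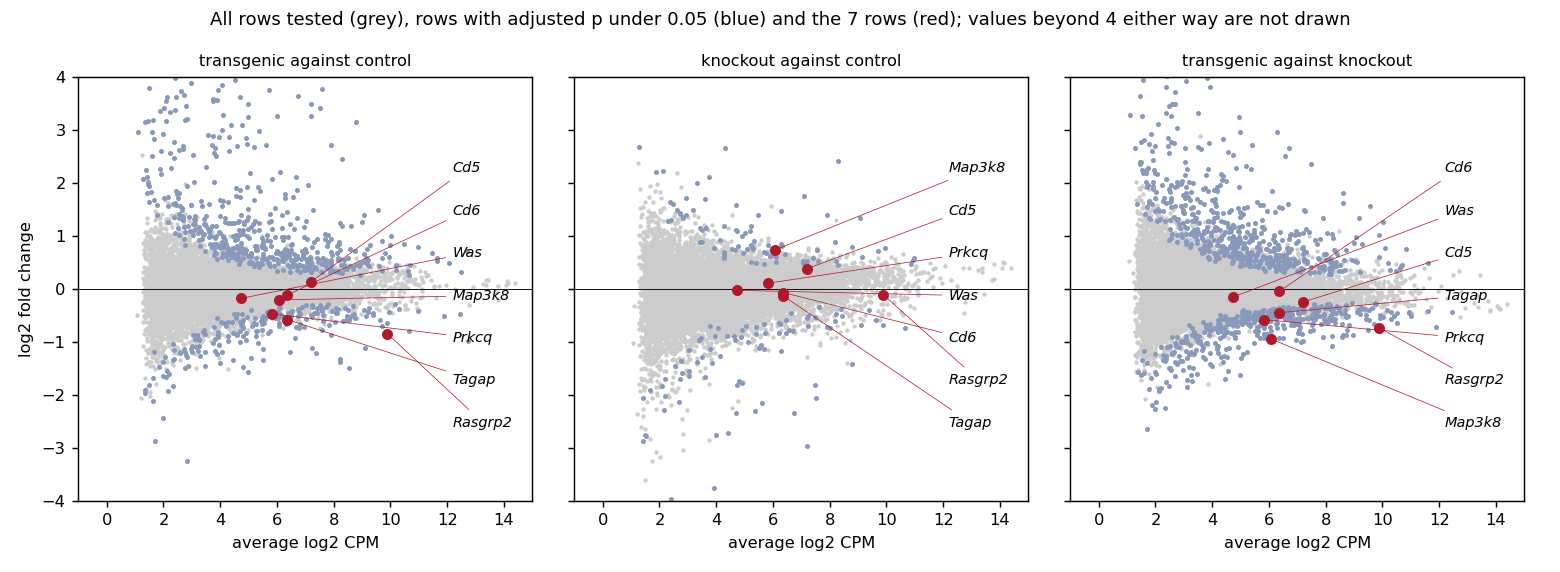
Log2 fold change (vertical axes) against average log2 CPM (horizontal axes) for the rows tested in each comparison; grey points are rows not called, blue points rows with an adjusted p under 0.05 and red points the 7 named rows, and values beyond 4 in either direction are not drawn. Called rows in transgenic against control were 522 higher and 217 lower, and the Rasgrp2, Tagap and Prkcq points lie below 0 among the lower ones.

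A wider list of 76 receptor signalling genes put these rows in context. All 76 are in the table, 12 start in the first 12 Mb and 56 were tested. In the first 12 Mb, 11 of 12 had a mean of at least 100 counts, against 22 of 64 beyond it, where 21 of 64 had a mean under 10. In transgenic against control libraries 2.17% of all rows tested were called lower and 7.4% in either direction. The list had a median log2 fold change of -0.04 against -0.01 over all rows tested, with 1 row called higher and 6 lower. Of the 6, 3 belong to the 7 rows, and without the 7 the list had 1 higher and 3 lower of 49 tested, with a median of -0.01. In knockout against control libraries 1 was higher and 0 lower, with a median of -0.10 against -0.02, and without the 7 none was called. There 0.881% of all rows tested were called higher and 1.89% in either direction. In transgenic against knockout libraries 3 were higher and 6 lower, with a median of -0.07 against -0.00. Without the 7 there were 3 in each direction of 49 tested. Of all rows tested there, 4.33% were called lower and 10.7% in either direction.

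The 5 list members in the first 12 Mb besides the 7 were called in no comparison. They were Fyb, an adaptor that links the receptor to integrins, Rela, the p65 subunit of NF-kB, Fermt3 (kindlin-3), an integrin activator, Pag1, a membrane adaptor that recruits the inhibitory kinase Csk, and Il2ra, the interleukin-2 receptor alpha chain. In transgenic against control libraries Pag1 had the largest log2 fold change of the 5, -0.54 (SE 0.19, adjusted p = 0.102), and Rela the smallest, 0.02 (SE 0.10, adjusted p = 0.943). In knockout against control libraries Il2ra was 0.38 (SE 0.11, adjusted p = 0.0661) and Fermt3 0.44 (SE 0.17, adjusted p = 0.147). Fyb held 257.6, 289.6 and 273.4 CPM in transgenic, knockout and control libraries, with -0.09 (SE 0.08, adjusted p = 0.645) for transgenic against control.

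Names in the list beyond 12 Mb are those of the table. Over all rows tested, 2.17% were called lower and 7.4% in either direction in transgenic against control libraries. Counts as small as those below do not set a role apart from these shares. Of the proximal kinases and adaptors, 0 were higher and 2 of 11 tested were lower in transgenic against control libraries, among them the row of the Tec family kinase Txk (-0.70, SE 0.19, adjusted p = 0.028). Of downstream signalling rows 2 of 13 were lower, Rasgrp2 and Prkcq, both among the 7. Among actin and adhesion rows 1 of 12 was higher, Cdc42 (1.24, SE 0.31, adjusted p = 0.0139), and 1 lower, Tagap, also among the 7. The inhibitors had 1 of 12 lower, Ubash3a (-0.44, SE 0.13, adjusted p = 0.0395), a protein that dampens receptor signals. No receptor or coreceptor row (4 of 6 tested) and no induced gene (4 of 12 tested) was called in that comparison. The 2 receptor rows and 8 induced genes left untested had a mean under 10 counts, so they say nothing either way.

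Against knockout libraries the transgenic ones were lower in the rows of Txk (-0.81, SE 0.20, adjusted p = 0.0121), Rhoh (-0.52, SE 0.14, adjusted p = 0.0178) and Ubash3a (-0.62, SE 0.14, adjusted p = 0.00432), besides Rasgrp2, Prkcq and Map3k8. The rows called higher were Cdc42 (2.03, SE 0.35, adjusted p = 0.000429), the inhibitory receptor Ctla4 (0.75, SE 0.21, adjusted p = 0.0212) and the transcription factor Irf4 (0.66, SE 0.17, adjusted p = 0.015). In knockout against control libraries Map3k8 was the one call of the list. Of the paralogues of the 7, none was called in any comparison: 3 of 7 other protein kinase C rows were tested, 3 of 3 other Rasgrp rows and 2 of 4 rows of the WASP and WAVE family, while Cd5l and Map3k14 had too few counts.

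Rows in the first 12 Mb that most resembled each member were found by Pearson's r of log2 CPM over the 17 libraries, among 411 rows (412 for Was) whose average log2 CPM reached 5. An r across all libraries reflects the differences between groups, and the libraries share their depth and quality, so r is also given with group means removed. Rows picked by r over all libraries tend to share a member's group differences, so their own calls are not separate support. Rasgrp2 was most like Nlrc3 (r = 0.925, and 0.540 within groups) and Carns1 (0.908 and 0.513). Both were lower in transgenic than in control libraries by edgeR's test, with log2 fold changes of -0.43 (adjusted p = 0.000448) for Nlrc3 and -0.87 (adjusted p = 0.000171) for Carns1. Prkcq was most like Syne1 (0.878 and 0.513) and Klf6 (0.875 and 0.633), with log2 fold changes of -0.48 (adjusted p = 0.000843) and -0.64 (adjusted p = 0.00552) in that comparison. Map3k8 was most like Osm (0.876 and 0.720), which encodes oncostatin M, and Rbm48 (0.849 and 0.368), neither called in knockout against control (adjusted p = 0.120 and 0.0735). Both were called lower in transgenic than in knockout libraries by edgeR's test, with -0.83 (adjusted p = 0.000841) for Osm and -0.37 (adjusted p = 0.0103) for Rbm48.

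For the other rows r with group means removed stood close to r over all libraries. Cd5 was most like Glyr1 (0.905 and 0.868) and Ascc2 (0.879 and 0.843), and Tagap most like Mark2 (0.840 and 0.749) and Sf1 (0.773 and 0.652). Cd6 was most like Usp7 (0.738 and 0.754) and Pitpnm1 (0.734 and 0.720). Was was most like Irs2 (0.729 and 0.706) and Rom1 (0.607 and 0.618). These were the lowest likenesses of the 7 rows.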

How the data were processed

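The expected counts that the authors deposited, 1 column for each of 17 libraries, were made with Bowtie2 on GRCm38 per the submitters' processing notes and with Ensembl 102 transcripts per the labels. The sources used here do not say whether counting used molecular identifiers or strand. Of 47643 rows, 47224 matched a symbol and coordinates in the annotation used here, GENCODE on GRCm38. Non-whole values, 5.87% of all, were rounded.

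One edgeR 4.0.16 quasi-likelihood fit in R 4.3.3 held all 17 libraries, with TMM factors and filterByExpr, and contrasts among the 3 groups. p-values were adjusted by Benjamini-Hochberg over 9986 rows, with a threshold of 0.05. The common biological coefficient of variation was 0.241. SEs come from the fold change and its F statistic. The fit was tested on simulated data, with changes placed in rows of all levels. It recovered 56%, 62% and 55% of log2 fold changes of 1 in transgenic against control, knockout against control and transgenic against knockout. For changes of 2 it recovered 89%, 90% and 94%. False calls numbered 12, 5 and 7. A row not called is thus not shown to be unchanged. Alternatives were leaving out libraries, a replicate block, other normalizations, counts without rounding, other filters, pairwise fits, limma 3.58.1 with voom and DESeq2 1.42.0. Library names carry identifiers that do not repeat between libraries, but the labels do not state that each is an animal. The p-values therefore reflect only how these libraries vary, and no pair agreed within sampling noise.

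The 7 rows and the lists were chosen with earlier results of these data known. Named rows are the 7, Foxp3, Nfkbid, neighbours, the 2 most alike rows per member and up to 4 called list rows per role, of which some are not reported here. E430024P14Rik was described after its values were seen.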

Additional observations from a re-analysis of the deposited data

Results flagged for a closer look

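Of 36 groups of values examined (totals, scaling factors, quality shares and levels of the 7 rows), 2 had a library set apart from its group by Dixon's criterion, which chance meets in about 1 of 20 groups. Control replicate 1 had the highest total, 4726615 counts. Transgenic replicate 1 had the lowest TMM factor of its group, 0.864, and also the highest mitochondrial share among transgenic libraries, 24.8%. Without transgenic replicate 1, Rasgrp2, Prkcq and Tagap stayed called in transgenic against control libraries. No level of the 7 rows set a library apart.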

How the results depend on the processing

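Over 29 alternatives, the Rasgrp2 calls and the Prkcq and Map3k8 calls against knockout held. In transgenic against control libraries 1 of the 7 rows was called with a replicate block, and 2 to 3 when 1 library was left out. In knockout against control libraries 1 to 2 were called on leaving out 1 library (2 without knockout replicate 4) and 0 without knockout replicates 2, 3 and 5. In transgenic against knockout libraries 3 to 4 were. The cause of these changes was not tested. Rows called in transgenic against control numbered 1226 in a fit of the 2 groups, 1348 without knockout replicates 2, 3 and 5, and 529 to 876 on leaving out 1 library. In knockout against control they numbered 571 without a filter, 605 with DESeq2, 76 in the 2 groups, 67 with the block, 43 without those 3 libraries and 88 to 1124 on leaving out 1 library. In transgenic against knockout they were 632 in the 2 groups, 670 with the block and 735 to 1641 on leaving out 1. Of the 76-gene list, transgenic against control called 13 in the 2 groups, 3 with the block, 13 without the 3 libraries and 4 to 8 on leaving out 1. Knockout against control called 2 without a filter, 3 with DESeq2, 0 without the 3 libraries and 1 to 9 on leaving out 1. Transgenic against knockout called 8 to 15 on leaving out 1. With upper quartile scaling 440 rows were higher and 302 lower in transgenic against control, and 579 and 610 in transgenic against knockout (633 and 432 with TMM). Signs turned only for values that were not called. Was in knockout against control became 0.015 with the block, 0.13 without the 3 libraries, and ran from -0.12 to 0.051 on leaving out 1. Cd6 became 0.14 without the 3 libraries and ran from -0.14 to 0.055 in that comparison and from -0.17 to 0.030 in transgenic against knockout, where Cd5 became 0.017 without the 3 libraries. The median share of exon bases on their own gene was 100% unmoved, 12.6% at 0.3 and 13.4% at 0.6 kb per Mb. Replicate numbers in the titles gave no pairing, since 1 of 16 same-numbered pairs had a correlation of deviations over 0.1 (range -0.517 to 0.364), and 4 of 34 fits of a library to the other groups were best with its own number. At 49 to 125 counts per library, the Was row allows only coarse comparisons.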
